A study of Mus musculus with 96 samples.

Results

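Single embryonic stem (ES) cells with the highest and the lowest scores over Slc2a3, Hk2 and Ldha, which are genes of glucose use, and Bnip3, a hypoxia-inducible gene of mitochondrial removal, were compared: 12 glycolysis-high and 12 glycolysis-low cells, 24 of the 48 cells of the series. The series profiled messenger RNA of single mouse ES cells of the J1 line, grown without feeder cells in medium with fetal bovine serum and leukaemia inhibitory factor (LIF), at passage 12 to 20. All cells carry this one description: no allele, agent or time point separates them, no separate culture is named for any cell, and so high and low are 2 ends of 1 labelled group and not 2 conditions. Capture and cDNA amplification took place on a microfluidic chip, and each library was read on 2 lanes. Only cells whose cDNA amplified well entered sequencing, per the labels' protocols.

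The cells were chosen by measured values. Counts of the lanes were summed for each cell and scaled to CPM, the reads of a gene in every 1000000 gene reads of that cell. Of 48 cells, 13 had 82.8 CPM or more of Gata6, a transcription factor of primitive endoderm, and were set aside with a limit of 20 CPM. In the other 35 cells Gata6 reached at most 1.36 CPM. These cells were ranked by a score, the mean of the z-scores of Slc2a3, Hk2, Ldha and Bnip3 on the log2(CPM + 1) scale. The 12 highest formed the glycolysis-high group, the 12 lowest the glycolysis-low group, and 11 cells lay between. The scores ran from -1.31 to 1.00. At the upper limit the last high cell scored 0.275 and the next cell, in the middle group, 0.230. At the lower limit the values were -0.284 for a middle cell and -0.320 for a low cell, so neither limit falls in a gap of the ranking.

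Glycolysis splits glucose into pyruvate in the cytosol, and lactate dehydrogenase turns pyruvate into lactate, which lets the pathway run without oxygen. Naive ES cells are known to use both glycolysis and mitochondrial respiration, and primed cells to rely more on glycolysis. Many glycolytic genes are targets of hypoxia-inducible factors (HIF), which bind short elements built on ACGTG or GCGTG, and of the factor MYC. The 4 score genes stand at separate steps: Slc2a3 encodes the glucose transporter GLUT3, Hk2 the hexokinase that traps glucose in the cell, Ldha the lactate dehydrogenase subunit A, and Bnip3 a protein of the outer mitochondrial membrane that serves the removal of mitochondria.

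The start regions of 6 genes are shown because the values below turn on them: 3 score genes and Tpi1, Pgk1 and Ero1l, which the score did not use. Each window runs from 250 bases before to 50 bases after a transcription start, on the gene's strand, as given by RefSeq on build GRCm38.p6, and capitals mark every ACGTG or GCGTG on either strand.
Hk2 (chr6:82774405-82774704, minus strand): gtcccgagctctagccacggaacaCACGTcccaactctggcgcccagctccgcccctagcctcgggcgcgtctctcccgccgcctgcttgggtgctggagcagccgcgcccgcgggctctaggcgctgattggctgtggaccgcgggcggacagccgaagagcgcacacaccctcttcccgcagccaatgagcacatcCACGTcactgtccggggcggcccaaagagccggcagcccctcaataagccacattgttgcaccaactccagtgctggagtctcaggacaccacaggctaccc
Tpi1 (chr6:124814109-124814408, minus strand): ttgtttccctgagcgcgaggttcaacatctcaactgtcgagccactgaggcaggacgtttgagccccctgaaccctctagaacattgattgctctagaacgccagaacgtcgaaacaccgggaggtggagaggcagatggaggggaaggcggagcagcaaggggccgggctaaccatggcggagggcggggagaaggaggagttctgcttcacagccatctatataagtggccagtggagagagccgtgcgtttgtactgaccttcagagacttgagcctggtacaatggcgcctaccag
Pgk1 (chrX:106186850-106187149, plus strand): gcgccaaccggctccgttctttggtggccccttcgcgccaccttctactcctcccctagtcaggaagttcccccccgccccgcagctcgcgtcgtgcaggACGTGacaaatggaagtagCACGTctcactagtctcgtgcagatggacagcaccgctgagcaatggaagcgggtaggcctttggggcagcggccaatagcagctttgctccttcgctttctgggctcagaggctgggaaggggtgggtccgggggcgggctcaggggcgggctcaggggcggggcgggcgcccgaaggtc
Ldha (chr7:46845554-46845853, plus strand): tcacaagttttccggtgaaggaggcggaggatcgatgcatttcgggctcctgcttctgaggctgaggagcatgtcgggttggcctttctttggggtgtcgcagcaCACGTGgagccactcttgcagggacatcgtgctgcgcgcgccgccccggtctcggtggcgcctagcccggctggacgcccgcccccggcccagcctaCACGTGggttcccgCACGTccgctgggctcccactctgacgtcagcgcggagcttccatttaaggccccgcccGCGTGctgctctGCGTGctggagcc
Bnip3 (chr7:138909457-138909756, minus strand): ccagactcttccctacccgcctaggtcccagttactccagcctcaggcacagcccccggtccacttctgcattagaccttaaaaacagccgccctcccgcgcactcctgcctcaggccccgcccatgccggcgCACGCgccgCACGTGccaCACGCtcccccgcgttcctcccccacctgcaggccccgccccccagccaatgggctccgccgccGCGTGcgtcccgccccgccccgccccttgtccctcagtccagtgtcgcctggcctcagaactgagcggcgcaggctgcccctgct
Ero1l (chr14:45318523-45318822, minus strand): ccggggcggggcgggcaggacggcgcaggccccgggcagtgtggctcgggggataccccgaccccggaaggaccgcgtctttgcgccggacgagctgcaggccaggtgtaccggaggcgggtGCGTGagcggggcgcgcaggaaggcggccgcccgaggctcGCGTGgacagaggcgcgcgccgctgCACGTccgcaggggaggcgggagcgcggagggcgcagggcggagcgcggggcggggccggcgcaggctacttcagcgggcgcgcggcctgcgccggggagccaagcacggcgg
The Ldha window, the first of 2 for this gene, held 7 matches, Bnip3 5, Ero1l 3, Hk2 2 and Pgk1 2, and the Tpi1 window held none. A palindromic CACGTG counts as a match on both strands. Slc2a3 had no entry in the RefSeq table. Such letters are common: 43.8% of all 32851 windows held at least 1 match, and so did 68.8% of the 9150 genes of the comparison that had an entry. Of the 27 glycolysis genes compared, 23 (85.2%) held a match in any of their windows, and of 32 hypoxia-inducible genes with an entry, 28 (87.5%). No binding was measured in these cells.

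The genes that made the score are given as a description of the groups. Ldha was measured at 183 CPM in the lowest, 499 in the median and 852 in the highest of the low cells. In the high cells the same 3 values were 693, 1338 and 2749 CPM. The groups overlapped by little, and 11 of the 12 high cells lay above the highest low cell. On the log2(CPM + 1) scale the mean was 10.45 ± 0.58 in high and 8.82 ± 0.64 in low cells (SD, n = 12 each), a difference of 1.63.

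Bnip3 set the groups apart by the largest difference of the 4, 4.95 log2 units. Low cells ran from 0.282 CPM through a median of 7.09 to 148 CPM, and high cells from 29.8 through 466 to 783 CPM. Here too, 11 of 12 high cells exceeded every low cell. The middle cells overlapped both groups, from 0.555 through a median of 65.7 to 298 CPM.

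Slc2a3 varied widely inside both groups. It ran from 3.13 through 219 to 904 CPM in low cells and from 127 through 527 to 2518 CPM in high cells, a difference of 1.90. Hk2 overlapped most: 354, 911 and 1968 CPM in low cells stood beside 228, 1563 and 3091 CPM in high cells, a difference of 0.45. The lowest Hk2 values of all 35 cells belonged to 2 cells of the high group, at 228 and 238 CPM.

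The 4 genes did not vary as a unit. Over the 35 cells Spearman's rho was 0.63 for Ldha with Bnip3, 0.28 for Slc2a3 with each of Ldha and Bnip3, and 0.11, 0.01 and -0.03 for Hk2 with Ldha, Bnip3 and Slc2a3. These are descriptions of cells that share a single label, and each value is a share of its cell's total. When each gene was compared between groups ranked by the other 3 genes, Bnip3 differed by 2.54, Slc2a3 by 0.67, Ldha by 0.55 and Hk2 by -0.10. This ranking was added after the data were seen. Hk2 thus had about the same mean in cells high and low for the other genes.

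**Figure D1:**
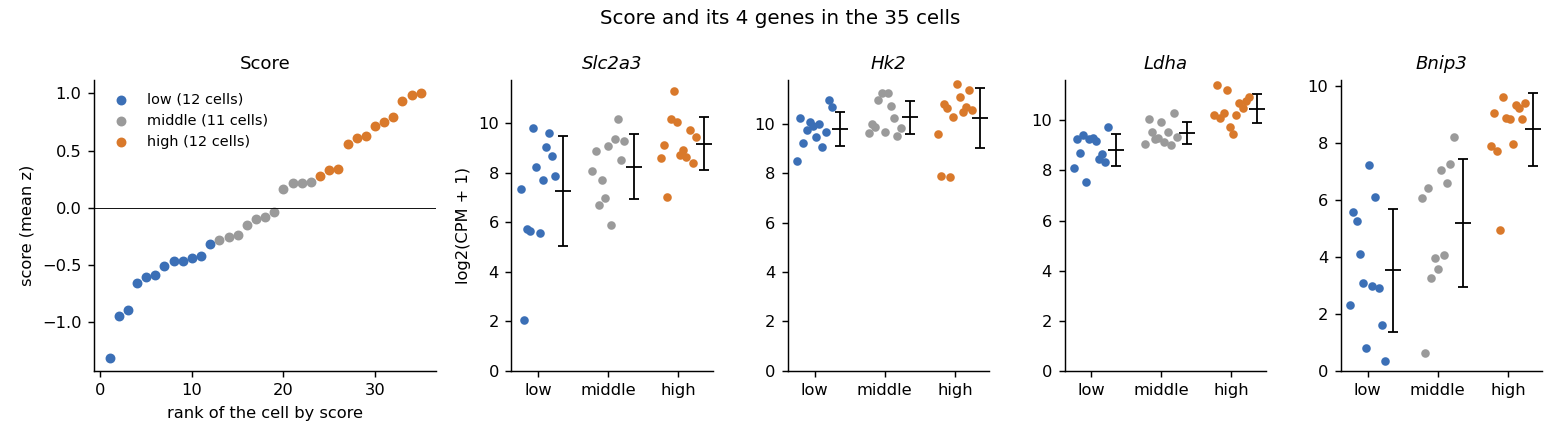
Left: score of each of the 35 cells (mean z-score, y axis) by rank. Right: log2(CPM + 1) of the 4 score genes in low (12 cells), middle (11) and high (12) cells, each dot a cell, with the mean and SD beside the dots. The score rises without a gap at either group limit, Ldha and Bnip3 separate nearly all high from low cells, and 2 high cells hold the lowest Hk2 values.

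The groups were close in depth. Cells had from 4408953 to 9767245 reads in genes, with medians of 6379499 in high and 6775340 in low cells, and a lane of a cell had from 2198523 to 4890845. Genes with a read numbered 8299 to 10291 in high cells and 8039 to 9710 in low cells, with medians of 8671 and 9145. With every cell thinned to 4408953 reads, genes with at least 5 reads had medians of 6906 in high and 7523 in low cells. The part of this gap in the results was not tested beyond a fit with detected genes regressed out, in which the median difference of the glycolysis genes was 0.84, beside 0.85 without it. The lanes of a cell differed as counting noise does, with a variance of 0.964 to 1.05 times that of Poisson counts. The ranking by 1 lane and the comparison on the other gave the same 24 cells.

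Each of 11450 genes that averaged 10 reads or more was then compared by the difference between group means of log2(CPM + 1), high minus low, with the 4 score genes left out. A gene was counted as past the fold when this difference was 1 log2 unit or more. Higher in the high cells were 1013 genes, 8.85% of those compared, and lower were 1122, or 9.80%. The median difference over all genes was -0.03, with quartiles of -0.52 and 0.43. As a stricter count, a gene also needed its direction in at least 80% of the 144 pairs of a high and a low cell. This left 33 higher genes (0.288%) and 45 lower genes (0.393%), and none of the 11450 separated the groups without overlap. The higher count was 51 without cell 15 and 50 without cell 37, both of the high group. The labels name no separate cultures and cells are no replicates of a condition, so no p-value or standard error is given, and the spread stated is that between cells.

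Genes of glucose uptake and glycolysis that the score did not use were mostly higher in the high cells. Of 36 genes listed, 3 were score genes, 6 had fewer than 10 reads on average, and 27 were compared. Of these, 25 differed upwards, beside 47.7% of all genes. Past the fold 12 were higher (44.4%, beside 8.85% of all genes) and none was lower (beside 9.80%). Their median difference was 0.85, with quartiles of 0.41 and 1.24. It lay between 0.54 and 1.00 in 15 other settings. The middle cells had a mean between the groups for 13 of the 27 genes. Gapdh, Pgk1, Tpi1, Aldoa, Pgam1, Eno1, Pkm2 and Ldha have near-identical gene or pseudogene copies, and how reads that map to several places were counted is not given in the sources used here, so their levels are uncertain.

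At the first step, glucose uptake, Slc2a1 encodes the widespread transporter GLUT1. It ran from 21.9 through a median of 133 to 406 CPM in low cells and from 61.3 through 225 to 643 CPM in high cells, a difference of 1.11. The groups overlapped over most of this range, and 3 of 12 high cells passed the highest low cell. Hk1, the other hexokinase compared, differed by -0.21 and was detected, with at least 5 reads after thinning, in 8 low and 7 high cells.

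The 3 phosphofructokinase subunits, which commit sugar to glycolysis, did not move alike. Pfkl, the liver-type subunit, had medians of 53.8 CPM in low and 166 CPM in high cells, with a difference of 1.19 and 6 high cells above every low cell. Pfkm, the muscle-type subunit, differed by 1.29, at medians of 1.32 and 11.4 CPM. Pfkp, the platelet-type subunit, differed by 0.31 and stayed within the fold. The regulatory enzyme gene Pfkfb2 differed by 1.08 with only 58.3% of pairs in that direction, while Gpi1, the isomerase one step earlier, differed by 0.38.

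The split of the sugar is done by aldolase, and Aldoa and Aldoc encode the forms compared here. Aldoa, with 1821 CPM at the median of low cells and 3111 CPM at that of high cells, differed by 0.55, and 81.9% of pairs ran upwards. Aldoc showed the largest difference of the list, 3.07. It was detected in 5 of 12 low and 10 of 12 high cells, and its medians were 0.412 and 118 CPM. Both groups contained cells without an Aldoc read, and the highest values were 150 CPM in low and 409 CPM in high cells.

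Tpi1 encodes triose phosphate isomerase, which evens out the products of aldolase. It ran from 105 through 225 to 639 CPM in low cells and from 258 through 544 to 1153 CPM in high cells. Every high cell lay above the low median, and 1 low cell lay above the high median. The means were 9.09 ± 0.64 and 8.00 ± 0.75 log2 units (SD, n = 12 each), a difference of 1.09, with 85.4% of pairs upwards. This value rests on Ldha in the score: with cells ranked without Ldha it was 0.20, and without Bnip3 0.52.

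Pgk1, the phosphoglycerate kinase that makes the first ATP of the pathway, was the list gene that separated the cells best. Low cells ran from 53.3 through 174 to 329 CPM, and high cells from 202 through 387 to 537 CPM. Of 12 high cells, 9 lay above every low cell, and no low cell reached the high median. The means were 8.52 ± 0.41 and 7.39 ± 0.72 log2 units (SD, n = 12 each), a difference of 1.13, with 93.8% of pairs upwards. The middle cells had a median of 221 CPM. Without Ldha in the score the difference was 0.55.

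Gapdh, which acts between Tpi1 and Pgk1 in the pathway and is often used as a reference gene, differed by 0.18. Its low cells held 1339 to 1809 CPM and its high cells 1249 to 3081 CPM, and 6 high cells lay above every low cell. Downstream, Pgam1, the phosphoglycerate mutase, had medians of 58.7 and 97.9 CPM with 86.8% of pairs upwards, a difference of 0.93 that stayed just within the fold. Eno1, the enolase, had medians of 15.7 and 24.8 CPM and differed by 0.43. Pkm2, the row for pyruvate kinase of the M type, differed by 0.55 with 83.3% of pairs upwards.

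Lactate production and export closed the pathway. Ldhb, the second lactate dehydrogenase subunit, had medians of 164 CPM in low and 263 CPM in high cells. Its difference of 1.69 came with 64.6% of pairs upwards. Low cells 24 and 14 had Ldhb z-scores of -3.70 and -3.43, and the next lowest of the 35 cells had -0.65. Much of the Ldhb difference thus lay in those low cells. The lactate exporter Slc16a3 (MCT4), a known hypoxia target, ran from 0 through 1.05 to 63.4 CPM in low cells and from 0.67 through 17.8 to 74.3 CPM in high cells. It was detected in 6 low and 10 high cells, with a difference of 2.12 and 79.2% of pairs upwards. Slc16a1 (MCT1), the broadly expressed lactate carrier, differed by 1.40. Minpp1 (1.94) and Pgam2 (1.60) complete the 12 genes past the fold, both at low levels in most cells.

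**Figure D2:**
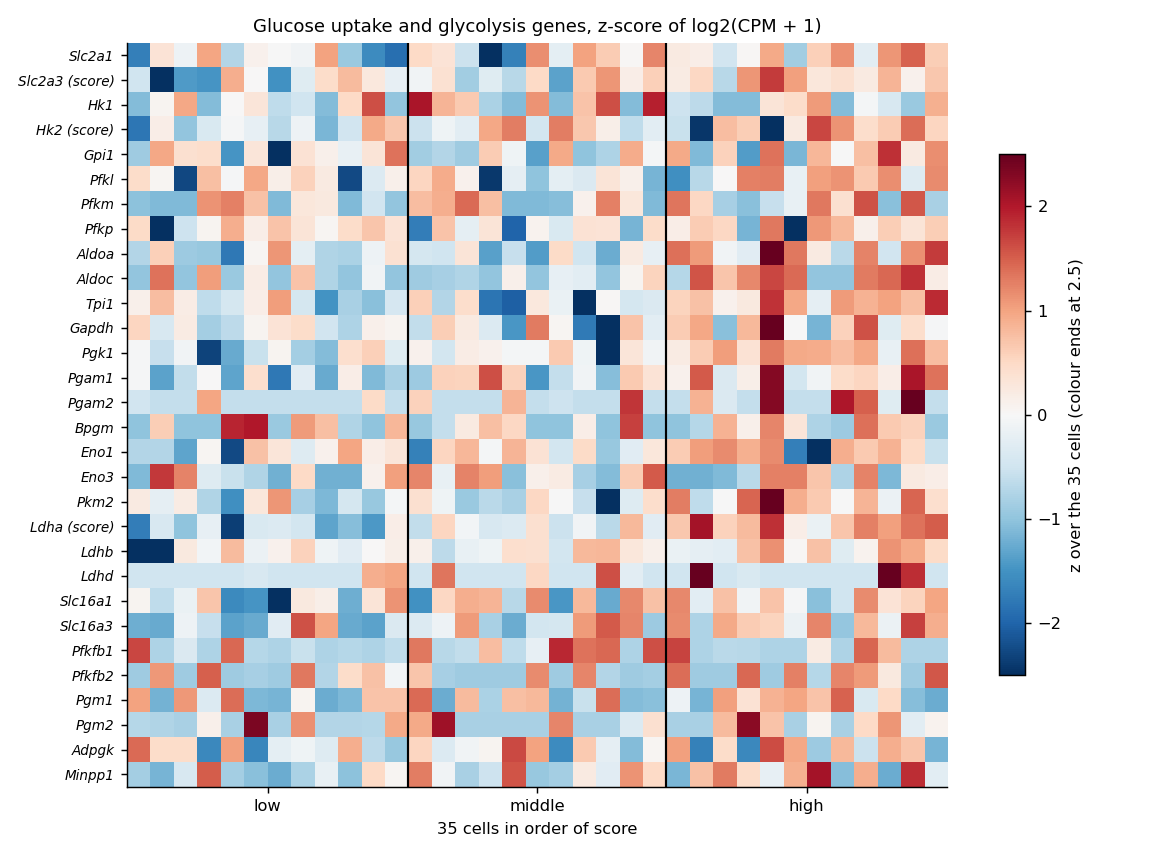
Each row is 1 of 30 genes of the pathway, the 27 compared and 3 score genes, in pathway order, and each column 1 of 35 cells in order of score. Colour gives the z-score of log2(CPM + 1) over the cells, with the scale ended at 2.5. The high cells at the right are redder in most rows, and 1 high cell is dark red in Aldoa, Gapdh, Pgam1 and Pkm2.

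Added up over the 36 listed genes other than the 3 score genes, transcripts of glycolysis made 5544 to 8762 CPM of a low cell. The median was 6577, and listed genes with too few reads to be compared were included. In high cells the sum ran from 7027 through 8993 to 18268 CPM, and in middle cells from 5001 through 6934 to 7602 CPM. Of 12 high cells, 7 lay above every low cell and 11 above every middle cell, and 4 low cells lay above the lowest high cell. Middle and low cells had like sums, so the sum did not climb evenly with the score, although its Spearman correlation with the score over 35 cells was 0.66.

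The top of this range was a single cell. Cell 46 had 18268 CPM, with 5353 CPM of Aldoa, 3808 CPM of Pkm2 and 3081 CPM of Gapdh, and at 228 CPM the lowest Hk2 of all 35 cells. The mean of the high cells was 10065 ± 2912 CPM with it (SD, n = 12) and 9320 ± 1410 CPM without it (SD, n = 11). The mean of the low cells was 6728 ± 967 CPM (SD, n = 12).

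Genes induced by hypoxia outside glycolysis were also more often higher than lower, but by less. Of 49 genes listed, Bnip3 was a score gene, 8 had too few reads, and 40 were compared. Their median difference was 0.45, with quartiles of -0.21 and 0.89, and 29 of 40 differed upwards, beside 47.7% of all genes. Past the fold were 6 higher (15.0%, beside 8.85% of all genes) and 2 lower genes (5.00%, beside 9.80%). The median was above 0 in each of 15 other settings, from 0.19 to 1.08.

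Ero1l, now named Ero1a, drives disulfide bond formation in the endoplasmic reticulum and is a known HIF target. Low cells ran from 0 through 0.894 to 15.1 CPM, and high cells from 0.158 through 28.3 to 167 CPM. It was detected in 6 low and 11 high cells, and 9 high cells lay above every low cell. The middle cells resembled the low ones, with a median of 0.313 CPM. The difference was 3.22, with 91.0% of pairs upwards, and it was at least 1.69 in 15 other settings.

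Pdk1, the kinase that holds pyruvate back from mitochondria, had medians of 111 CPM in low and 129 CPM in high cells. The difference of means was 1.09, with 68.8% of pairs upwards, and 1 low cell lay at 0.57 CPM. The other genes past the fold were Ier3 (1.75), Ankrd37 (1.43), Hilpda (1.23), a lipid droplet protein, and P4ha2 (1.00), a collagen prolyl hydroxylase. Kdm3a, a histone demethylase that is a known HIF target, went the other way. It ran from 18.6 through 88.9 to 494 CPM in low cells and from 0.503 through 40.3 to 129 CPM in high cells, a difference of -1.69. Errfi1 differed by -1.27. Other classical targets had few reads: Vegfa, the vascular growth factor, was detected in 1 low and 3 high cells, and Adm, the peptide adrenomedullin, in 0 low and 2 high cells.

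**Figure D3:**
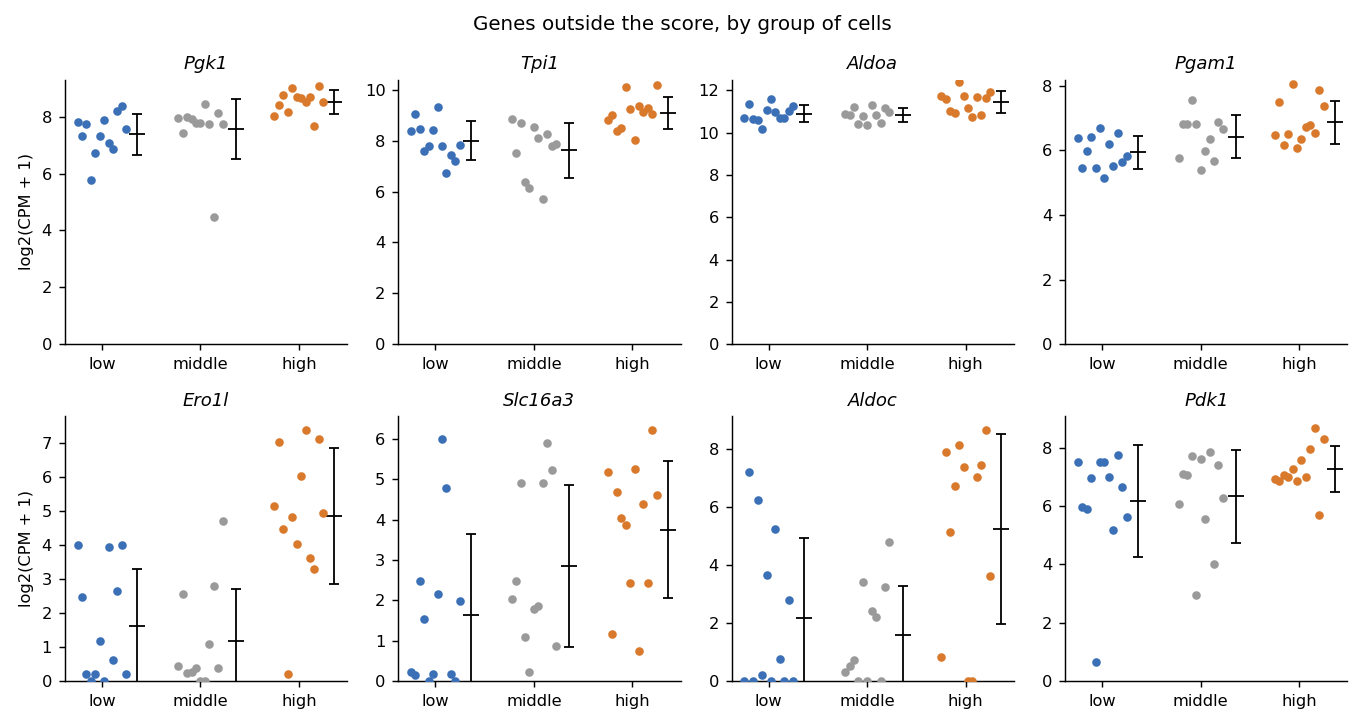
log2(CPM + 1) of 8 genes that the score did not use, in low (12), middle (11) and high (12) cells. Each dot is a cell, and the bar beside it gives mean and SD. Pgk1 and Ero1l show the clearest shift of the high cells (9 of 12 above every low cell in each), Slc16a3 and Aldoc are at or near 0 in many low cells, and the middle cells lie with the low cells for Tpi1, Aldoa and Ero1l.

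The transcripts of the HIF system itself held none past the fold among 20 genes, and their median difference was -0.03. Hif1a, the oxygen-regulated subunit, had medians of 43.3 CPM in low and 58.8 CPM in high cells, a difference of 0.72. Its partner Arnt differed by -0.56, Vhl, which marks HIF for destruction, by -0.41, and the oxygen sensors Egln1, Egln2 and Egln3 by 0.91, -0.40 and 0.78. HIF is regulated mainly at the protein level, which was not measured.

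Mitochondrial genes showed no such shift. The 69 genes of the respiratory chain and ATP synthase had a median difference of -0.01, with quartiles of -0.11 and 0.12 and none past the fold. The 38 genes of pyruvate dehydrogenase and the TCA cycle had a median of 0.04. Among them 1, Pdk1, was higher past the fold (2.63%, beside 8.85% of all genes), and 3 were lower (7.89%, beside 9.80%). Both shares lay below those of all genes. The lower ones were Pdp2 (-2.46), the phosphatase that opposes Pdk1, Mpc1 (-1.46), a subunit of the mitochondrial pyruvate carrier, and Sdha (-1.04). Sdha is also a subunit of respiratory complex II but was not among the 69 genes, so that list does not cover every subunit. Mpc1 ran from 0 through 17.9 to 57.2 CPM in low cells and from 0 through 7.18 to 18.2 CPM in high cells, with 20.5% of pairs upwards. Pdp2 had medians of 62.4 CPM in low and 3.33 CPM in high cells, but a median of 1.30 CPM in the middle cells, so its levels followed no order of score.

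Side branches of glucose use gave mixed values. In the pentose phosphate pathway 3 of 12 genes (25.0%, beside 8.85% of all genes) were higher past the fold. They were Tigar (1.19), H6pd (1.03) and Tkt (1.02), and the median of the list was 0.11. For serine synthesis and the ATF4 response 4 of 29 were higher and 4 lower (13.8% each), with a median of -0.36. Over all genes the shares were 8.85% and 9.80%. Higher were Shmt2 (1.50) and Psph (1.25), which act in the serine and glycine branch, Aldh18a1 (1.91) and Gpt2 (1.19), and lower were Nupr1 (-1.46), Trib3 (-1.45), Mthfd2 (-1.41) and Atf3 (-1.22). Of 18 genes of mitophagy and autophagy other than Bnip3, 1 was higher (5.56%) and 2 lower (11.1%), with a median of -0.20. Atg5 (1.52) was higher, and Map1lc3a (-1.31) and Sqstm1, which only just passed the fold, were lower.

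Myc was lower in the high cells. It ran from 0.163 through 23.8 to 131 CPM in low cells and from 0 through 0.211 to 197 CPM in high cells. It was detected in 11 of 12 low and 4 of 12 high cells, while the middle cells had a median of 53.1 CPM, above both groups. The difference was -2.65, with 18.8% of pairs upwards, and it lay between -3.40 and -1.29 in 15 other settings. Of 16 genes in the list of MYC and LIN28 regulators, which also holds related genes such as Arrdc4, none was higher past the fold. Lower were 5 (31.2%, beside 9.80% of all genes): Myc, Mlx (-1.70), Mycl1 (-1.25), Max (-1.20) and Arrdc4 (-1.04). Of these, only Myc also passed the stricter count. Mycn, the family member prominent in ES cells, differed by 0.45, with medians of 251 CPM in low and 197 CPM in high cells, so its mean and median pointed apart. Lin28a differed by -0.24.

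Immediate early genes, which answer growth factors and cell handling within minutes, had the lowest median of the lists compared, -0.79. Of 18 compared, 8 were lower past the fold (44.4%, beside 9.80% of all genes) and 1, Ier3, was higher. Myc, 1 of the 8, is also counted among the MYC and LIN28 regulators, and Ier3 among the hypoxia-inducible genes. Cyr61, now named Ccn1, ran from 0.258 through 5.64 to 163 CPM in low cells and from 0 through 0.206 to 30.6 CPM in high cells, a difference of -2.03 with 12.5% of pairs upwards. Klf6 had medians of 132 CPM in low and 57.3 CPM in high cells. Ctgf differed by -1.47, Nr4a1 by -1.43 and Fos by -1.19. The best known member, Egr1, differed by -0.79 with 50% of pairs upwards. The list value depended on Hk2 in the score: with cells ranked without Hk2 the median was 0.07. Summed over its genes the list ran from 93.0 to 1109 CPM in high and from 130 to 3196 CPM in low cells.

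**Figure D4:**
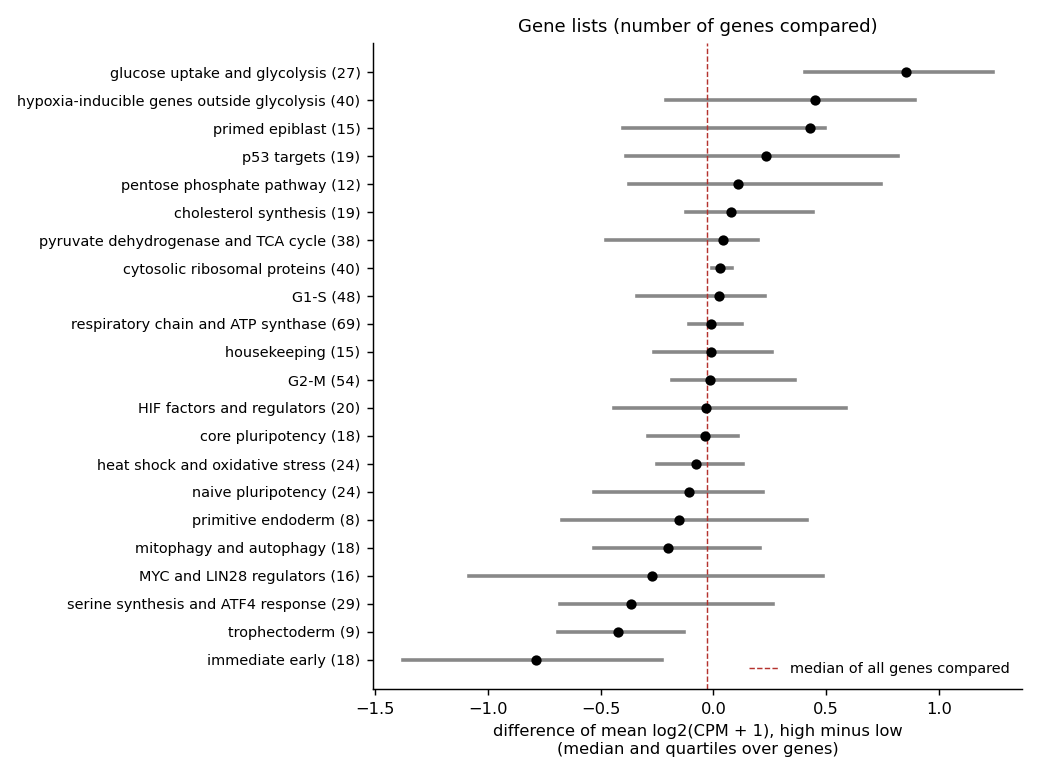
Median (dot) and quartiles (bar) over genes of the difference of mean log2(CPM + 1), high minus low, for each list with at least 8 genes compared. The dashed line is the median of all 11450 genes, -0.03. Glycolysis (0.85) lies farthest to the right and immediate early genes (-0.79) farthest to the left, while respiratory chain and ribosomal protein genes sit at the line with short bars.

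The name of the cells as naive was checked against markers. Zfp42 (Rex1), a marker of the naive state, had 285 to 3066 CPM in low and 1085 to 2968 CPM in high cells, so every one of the 24 cells carried it. Its medians were 1864 CPM in low and 1445 CPM in high cells, with 38.2% of pairs upwards. Pou5f1 ran from 13.6 to 152 CPM in low and from 3.13 to 115 CPM in high cells (difference -0.52), Sox2 from 27.9 to 173 and from 37.2 to 165 CPM (0.10), and Nanog from 1.47 to 156 and from 3.00 to 162 CPM (-0.30). The ranges of the core factors overlapped almost fully. The 24 naive genes had a median difference of -0.11 and the 18 core pluripotency genes -0.04. Summed, the naive genes ran from 5160 through a median of 8576 to 12263 CPM in high cells. In low cells they ran from 4760 through 10795 to 14428 CPM. The core genes summed to medians of 7314 CPM in high and 6919 CPM in low cells.

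Single naive genes still varied. Dppa3 (Stella) ran from 0 through 120 to 1026 CPM in low and from 67.1 through 239 to 687 CPM in high cells, a difference of 1.40 with 68.1% of pairs upwards. With all 48 cells ranked its difference was -1.63, and that ranking shares only 5 of the 12 high cells. Tbx3 differed by -1.64 and Nr0b1 by -1.13, and Esrrb (0.62) and Klf4 (0.19) stayed within the fold. Without Hk2 in the score Esrrb stood at -0.69 and Zfp42 at -0.75, beside 0.07 for Zfp42 with it.

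Among 15 genes of the primed epiblast list 3 were higher past the fold (20.0%, beside 8.85% of all genes) and 1 lower (6.67%, beside 9.80%). Higher were Pim2 (1.30), Zic2 (1.02) and Dnmt3b (1.01), a DNA methyltransferase. Lower was Krt18 (-1.65), a keratin that is also in the trophectoderm list. The median of the primed list was 0.43, and -0.08 when only genes averaging 50 reads or more were kept. Of the 18 core genes, 2 (11.1%, beside 9.80% of all genes) were lower past the fold, Dppa2 (-1.81) and Lefty2 (-1.11).

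Markers of other cells were compared with their sums in the 13 Gata6-positive cells. The 21 primitive endoderm genes summed to 117 to 558 CPM in high and 46.5 to 848 CPM in low cells, beside 15871 to 37395 CPM in the Gata6-positive cells. Lama1, a basement membrane laminin, was lower in the high cells within this small range, with medians of 13.4 CPM in low and 2.59 CPM in high cells and a difference of -1.87. Foxa2 had no read in any of the 24 cells, nor had Cdx2 and Elf5 of 12 trophectoderm genes, T and 7 other genes of 12 for mesendoderm, Col1a2, Col3a1 and 4 others of 13 for fibroblasts, or Zscan4c, Zscan4d and 6 others of 10 for the 2-cell-like state. Trophectoderm genes summed to 4.19 to 246 CPM in high cells (median 41.9) and 28.8 to 1883 CPM in low cells (median 77.0), beside a median of 1061 CPM in Gata6-positive cells. Fibroblast genes summed to 13.2 to 621 CPM in high and 66.2 to 352 CPM in low cells, and their medians of 215 and 160 CPM stood beside 215 CPM in Gata6-positive cells. The part of these genes in the comparison was not tested.

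Cell cycle genes had list medians near 0. The 48 genes of G1-S had a median difference of 0.02, with 2 higher (4.17%) and 3 lower (6.25%) past the fold. The 54 genes of G2-M had -0.01, with 5 higher (9.26%) and 3 lower (5.56%). Over all genes the shares were 8.85% and 9.80%. Smc4, a condensin subunit, was the exception by the stricter count, at 2.49 through 232 to 407 CPM in low and 213 through 368 to 615 CPM in high cells (1.14). Plk1, a mitotic kinase, had medians of 220 CPM in low and 90.4 CPM in high cells (-2.12). Summed, G2-M genes ran from 9685 through a median of 15060 to 18266 CPM in high cells and from 10062 through 12338 to 24292 CPM in low cells. The part of the higher median of the high cells in the other results was not tested.

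Other lists used as checks lay near the median of all genes. Cytosolic ribosomal proteins (40 genes, median 0.03, none past the fold), housekeeping genes (15 genes, -0.01), heat shock and oxidative stress (24 genes, -0.08) and cholesterol synthesis (19 genes, 0.08) did not shift as lists. Of the housekeeping genes, 2 were higher past the fold (13.3%, beside 8.85% of all genes) and 1 lower (6.67%, beside 9.80%). Pgk1 is in this list as well as in the glycolysis list. With TMMwsp scaling the median was 0.36 for ribosomal proteins, 0.34 for housekeeping genes and 0.77 for glycolysis. Targets of p53 had a median of 0.24, with 4 of 19 higher past the fold (21.1%, beside 8.85% of all genes) and 1 lower (5.26%, beside 9.80%). The higher ones were Trp53inp1 (2.30), Pmaip1 (1.93), Mdm2 (1.16) and Cdkn1a (1.05). None of the 19 passed the stricter count, and Mdm2 had 60.4% of pairs upwards.

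Among genes past 1 log2 unit and 80% of pairs with a mean of at least 10 CPM, those with the largest differences had many functions. Wdr67, now named Tbc1d31, a protein of centriolar satellites, ran from 0 through 7.81 to 27.8 CPM in low and from 7.04 through 56.3 to 246 CPM in high cells, a difference of 3.41 with 93.8% of pairs upwards. Snx27, a sorting nexin of the retromer pathway, was present in every high cell at 51.5 to 257 CPM, beside 0.282 to 112 CPM in low cells (2.46, 92.4% of pairs). Its middle cells had a median of 40.1 CPM, near the low median of 29.8 CPM. Atr, the kinase that answers replication stress, had medians of 10.3 CPM in low and 79.9 CPM in high cells (2.56).

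The other genes among the 15 with the largest upward differences under these limits, besides Ero1l, were Rfesd (3.12), Mpzl1 (3.03), Fam63b (2.87), Cmtm4 (2.77), Fbxl6 (2.74), Ncstn (2.73), Naa16 (2.59), Ddx59 (2.46), Gm10033 (2.42), Rap2c (2.38) and 2810021B07Rik (2.36). Ncstn encodes nicastrin of the gamma-secretase complex, and Naa16 a subunit of an N-terminal acetyltransferase. Each of these 11 genes was detected in 2 to 10 low and in 8 to 12 high cells, and Rfesd in 5 and 11. All 11 stayed above 0 in 15 other settings, but the lowest difference was 0.52 for Rfesd, 0.56 for Ncstn and 0.67 for Ddx59. Naa16, Rap2c and 2810021B07Rik also fell below 1 log2 unit in at least 1 setting.

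Among the 15 genes with the largest downward differences under the same limits, Tmem216, a protein of the ciliary transition zone, had the largest difference, -3.34. It ran from 0 through 42.9 to 202 CPM in low and from 0 through 0.243 to 88.6 CPM in high cells. Cdk20, a kinase related to the cell cycle family, was the most one-sided in detection. After thinning, 7 of 12 low cells and 0 of 12 high cells had at least 5 reads, and the highest high cell held 0.180 CPM. Akap8, a nuclear scaffold protein, was detected in all 24 cells, at 3.58 through 95.5 to 416 CPM in low and 1.30 through 11.6 to 60.2 CPM in high cells (-2.55, 12.5% of pairs upwards). Scrib, a cell polarity protein, had 11.8% of pairs upwards (-2.43).

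Next to Myc, the others were Tbccd1 (-3.19), Chmp1a (-3.14), Uros (-3.03), Dph2 (-2.96), Mtus2 (-2.90), Acad9 (-2.73), Hus1 (-2.62), Vps8 (-2.57), Glrx (-2.51) and Inpp4a (-2.44). Chmp1a is a part of the ESCRT-III membrane machinery, Uros an enzyme of heme synthesis, Acad9 an assembly factor of respiratory complex I, and Hus1 a part of the DNA damage clamp. Glrx, a glutaredoxin, ran from 3.95 through 56.0 to 269 CPM in low and from 0 through 12.4 to 136 CPM in high cells. In 15 other settings the smallest difference was -0.75 for Glrx, -0.81 for Acad9 and -0.89 for Scrib, within the fold. The middle cells had a mean log2 value between those of the groups for each of the 15 genes with the largest downward differences, Myc included. The same held for 14 of the 15 genes with the largest upward differences, Ero1l being the exception. All were picked for wide gaps between the groups, into which a middle mean falls readily, so these counts do not show a graded change with the score. Among the glycolysis genes compared it held for 13 of 27.

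**Figure D5:**
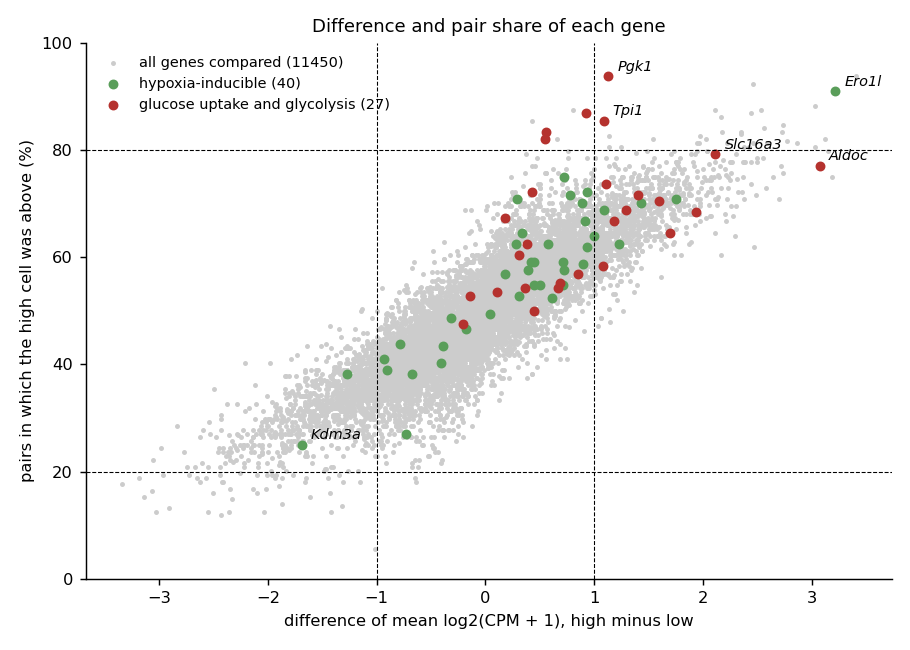
Each of 11450 genes by its difference of mean log2(CPM + 1), high minus low (x axis), and the percentage of 144 pairs in which the high cell was above the low cell (y axis). Dashed lines mark 1 log2 unit and 80% or 20% of pairs. Glycolysis genes (red, 27) lie mostly right of 0, with Pgk1 and Tpi1 in the upper right field, and of the hypoxia-inducible genes (green, 40) Ero1l alone lies there.

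The 13 Gata6-positive cells, which took no part in the ranking, were not low in these genes. Their medians were 875 CPM for Slc2a3, 1952 CPM for Hk2, 1100 CPM for Ldha and 202 CPM for Bnip3. Ldha and Bnip3 stood between the low and the high group, and Slc2a3 and Hk2 above the median of both. Their glycolysis sum ran from 5217 through 7872 to 11537 CPM. These values were set beside the groups after the data were seen, and the difference was not tested.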

How the data were processed

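Messenger RNA of 48 single cells was read on 2 lanes each, 96 samples in all. The authors deposited whole-number read counts per gene, not normalized, in 1 table of 23284 gene rows. Build mm9 is named in the submitters' processing notes, as are featureCounts, Subread (1.4.5-p1) and STAR (2.3.1z12), without their roles. The SMARTer kit does not mark strand, so reads of antisense partners cannot be told apart. The table has no coordinates, and 25 date-like rows held 0.660% of the reads.

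Lanes were compared by chi-square and summed per cell. CPM used the total over all gene rows, and log2(CPM + 1) a pseudocount of 1. The score and groups followed the rule given in the report, with genes of a mean summed count of at least 10 compared. Detection means at least 5 reads after each cell was thinned to 4408953 reads. Reads carry no molecular identifiers, and no doublet caller was run on these chip captures. The comparison is descriptive: it has 1 sample of cells, with no p-value. The script was tested on simulated data.

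The members and 26 gene lists (659 genes, 656 with a row) were chosen with earlier results of these data known. Named genes were the 15 with the largest difference in each direction among genes past 1 log2 unit and 80% of pairs with a mean of at least 10 CPM, the members of the glycolysis and hypoxia lists past both, the score genes, and Gata6, Pou5f1, Sox2, Nanog, Zfp42, Esrrb, Klf4 and Dppa3. Other list genes named were picked after their values were seen. Promoter windows came from RefSeq (GRCm38.p6), matched by symbol. Alternatives were TMMwsp scaling, thinning, pseudocount, filters, group size, a score gene left out, lanes, detected genes regressed out, all 48 cells ranked and each cell left out. Python 3.11.15, numpy 2.4.6, pandas 2.3.3, scipy 1.17.1 and matplotlib 3.10.9 were used, and edgeR 4.0.16 in R 4.3.3 for the TMMwsp factors.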

Additional observations from a re-analysis of the deposited data

How the results depend on the processing

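The median difference of the glycolysis genes stayed above 0 in all 15 settings tried, from 0.54 to 1.00, and from 0.60 to 0.97 with each cell left out in turn. That of the hypoxia-inducible genes was 0.19 to 1.08 in those settings, the highest with all 48 cells ranked, and 0.35 to 0.56 with each cell left out. Counts of genes moved more. Genes past 1 log2 unit numbered 183 higher and 222 lower with a pseudocount of 10 CPM, and 1619 higher with 8 cells per group. By the stricter count there were 53 higher and 71 lower genes with TMMwsp scaling, 141 and 114 with 8 cells per group, 3 and 7 with 17 cells per group, and 138 and 119 with all 48 cells ranked, beside 33 and 45. The cause was not tested. With each cell left out in turn, 921 to 1165 genes were higher and 1070 to 1334 lower past the fold, and 33 to 51 and 43 to 66 by the stricter count. Dppa3 changed direction once, at -1.63 with all 48 cells ranked. Ranked by the other 3 genes, a choice made after the data were seen, Ldha differed by 0.55 and Bnip3 by 2.54. No paired analysis was possible because all cells belong to 1 group. Groups of 12 cells with no separate cultures named limit what any of these values says of other cells.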
